A study of Mus musculus with 14 samples.

Results

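The genes described here control the step from the G1 phase of the cell cycle to DNA synthesis. They are 10 genes fixed by name, Cdkn2a, Cdkn2b, Rb1, Ccnd1, Ccnd2, Ccne1, Ccne2, Cdk4, Cdk6 and E2f1, out of 24421 gene entries, and all 10 were found and passed the filter on low counts in each comparison. Their levels were measured by sequencing polyA RNA of mouse gastric tumours grown from transplants. The 12 libraries form 4 groups of 3: orthotopic TMPC, subcutaneous TMPC, subcutaneous TMP and subcutaneous TM. Orthotopic tumours grew at the organ of origin and subcutaneous ones under the skin, and about 1 cm3 of tissue was taken 2 months after transplantation in every group. What the letters of TM, TMP and TMPC stand for is not in the labels, nor are the strain, age or immune state of the mice, so the 3 names serve as names only. Nothing says that replicates came from separate animals or tumour lines, so each p-value rests on the variation among these libraries, part of which may be technical. The comparisons that the groups allow are TMP against TM and TMPC against TMP and TM under the skin, and orthotopic against subcutaneous TMPC. The comparisons with TM share its libraries, and the subcutaneous TMPC libraries serve in 3 of the 4 comparisons.

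Cells leave G1 when cyclin-dependent kinases inactivate the retinoblastoma protein, which is encoded by Rb1 and holds E2F transcription factors in check. D cyclins (Ccnd1, Ccnd2) with Cdk4 or Cdk6 begin this, and E cyclins (Ccne1, Ccne2) with Cdk2 complete it, while Ccne1, Ccne2 and E2f1 are themselves transcribed under E2F control. Cdkn2b and one product of Cdkn2a, p16Ink4a, block Cdk4 and Cdk6, and the other Cdkn2a product, p19Arf, blocks Mdm2 and so stabilises p53. In many tumours this axis is disabled by loss of Cdkn2a or Rb1, by gain of cyclin D or Cdk4, or by gain of cyclin E, the last being common in gastric cancer.

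The libraries held 16584781 to 21107310 counts. Levels below are CPM, counts relative to the library total after TMM scaling over the 12 libraries, and 3 counts corresponded to 0.142 to 0.181 CPM. Replicate 2 of the TM group stood apart: 7 epithelial markers (Epcam, keratins, Cdh1, claudins) summed to 237 CPM there, against 4088 and 4379 CPM in the other TM libraries, while 14 leukocyte markers summed to 10945 CPM, against 2963 and 2720 CPM. Adipose markers (7259 CPM, against 126 and 82.2 CPM) and endothelial markers (679 CPM, against 223 and 189 CPM) were likewise higher in it, and fibroblast markers lower (3371 CPM, against 12724 and 15896 CPM). Among orthotopic libraries replicate 3 had 7572 CPM of 6 liver markers, against 49.2 and 42.9 CPM. It was also higher in markers of fibroblasts (18568 CPM, against 6778 and 7546 CPM), smooth muscle (1372 CPM, against 545 and 684 CPM) and endothelium (469 CPM, against 237 and 184 CPM). The same held for leukocytes (2240 CPM, against 1255 and 1341 CPM) and pancreas (155 CPM, against 20.9 and 17.1 CPM). Its epithelial markers were lower (4362 CPM, against 6734 and 7214 CPM). Of the labelled tissue's own markers, 11 genes of gastric epithelium such as Muc5ac, Gkn1 and Cldn18 summed to between 3846 and 6654 CPM in orthotopic tumours with none at 0. They summed to 0.819 to 1.497 CPM in subcutaneous TMPC, 1.31 to 1.98 CPM in TMP and 1.47 to 29.4 CPM in TM tumours, with 1 to 8 of the 11 at 0, and Cldn18 was at 0 in 8 of these 9 libraries. In bulk tissue, fewer cells of a type and less RNA per cell cannot be told apart, and the part of these cell mixtures in the values below was not tested.

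On a scale that allows for length, CPM per kilobase of all annotated exons of a gene, Cdkn2a and Cdk4 had the highest means of the 10 in every group. The transcripts expressed may be shorter than that length, so places, shares and ratios on this scale depend on it. By CPM alone Ccnd2 averaged more than Ccnd1 in TM (341 and 209 CPM) and orthotopic TMPC tumours (207 and 136 CPM), unlike below. In TM replicate 2, however, Cdkn2a (10.3 CPM per kb) was below Cdk4, Ccnd2, Ccnd1 and Rb1 (33.8, 24.8, 23.6 and 15.0 CPM per kb). Cdkn2a averaged 121 ± 66.2 in orthotopic TMPC, 296 ± 166 in subcutaneous TMPC, 277 ± 41.0 in TMP and 91.1 ± 72.7 in TM tumours (CPM per kb, SD, n = 3 each). Cdk4 averaged 77.9 ± 2.08, 192 ± 12.5, 149 ± 15.2 and 57.7 ± 21.5 CPM per kb in the same order of groups. Cdkn2a and Cdk4 differed by less than their spread in orthotopic TMPC, subcutaneous TMPC and TM tumours and by more than it in TMP tumours. Ccnd1 came next in all 4 groups, at 28.9 ± 13.4 CPM per kb in orthotopic TMPC, 57.0 ± 31.0 in subcutaneous TMPC, 46.9 ± 9.14 in TMP and 44.4 ± 18.5 in TM tumours. At the low end Cdk6 stayed between 0.857 CPM per kb in orthotopic TMPC and 1.67 CPM per kb in subcutaneous TMPC, and Ccne2 between 0.766 CPM per kb in TM and 4.22 CPM per kb in subcutaneous TMPC. Rb1 and Ccne1 changed places between groups: Rb1 stood seventh in orthotopic TMPC (5.91 ± 1.06 CPM per kb), ninth in subcutaneous TMPC (3.62 ± 0.724), eighth in TMP (3.75 ± 0.478) and sixth in TM tumours (10.1 ± 4.26), whereas Ccne1 stood eighth in orthotopic TMPC (4.96 ± 1.30), sixth in subcutaneous TMPC (16.9 ± 2.02), the fifth in TMP (13.7 ± 0.274) and eighth in TM tumours (3.20 ± 2.11). In orthotopic TMPC, Ccnd1, Cdkn2b and Ccnd2 (28.9, 27.8 and 22.0 CPM per kb) and, below them, E2f1, Rb1 and Ccne1 (6.15, 5.91 and 4.96 CPM per kb) lay within their spread of each other. Other places rest on values within their spread too: Ccne1 and Ccnd2 in subcutaneous TMPC (16.9 and 20.97 CPM per kb) and TMP (13.7 and 13.6), and Rb1 and Ccne2 in subcutaneous TMPC (3.62 and 4.22) and TMP (3.75 and 3.37). In TM tumours so do the places of Cdk4, Ccnd1 and Ccnd2 (57.7, 44.4 and 36.3 CPM per kb) and of E2f1 and Ccne1 (4.25 and 3.20).

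**Figure D1:**
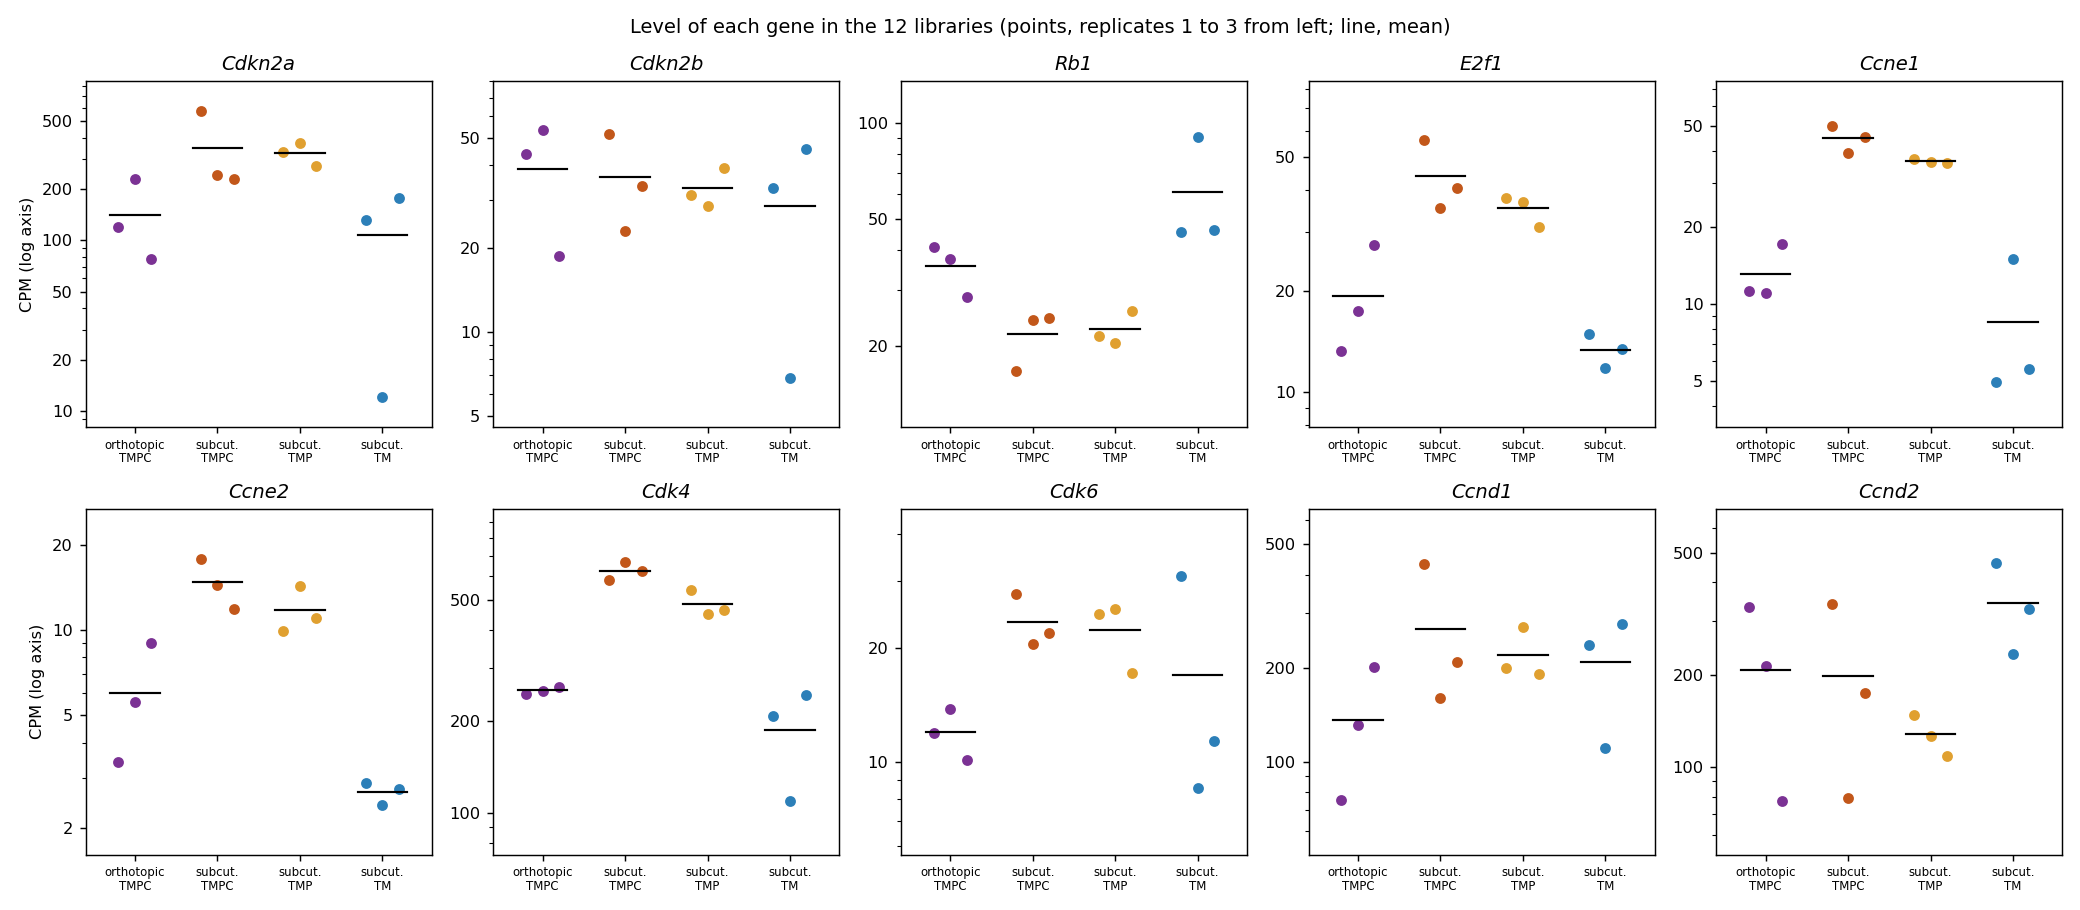
Level of each of the 10 genes in the 12 libraries, in CPM on a log axis, by group; points are libraries, with replicates 1 to 3 from left to right, and lines are group means. Cdk4, Ccne1, Ccne2 and E2f1 lie higher in subcutaneous TMPC and TMP tumours than in TM tumours and lower in orthotopic TMPC than in subcutaneous TMPC tumours, whereas Rb1 is highest in TM tumours and Cdkn2a falls to 12.1 CPM in TM replicate 2.

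Under the skin, TMP and TMPC tumours held more mRNA of Cdk4, both E cyclins and E2f1 than TM tumours, and less of Rb1. Leukocyte markers were also lower in all of them, at 584 to 1176 CPM in TMPC and 452 to 995 CPM in TMP, against 2720 to 10945 CPM in TM tumours. Liver markers were too, at 1.60 to 2.22 and 1.78 to 4.41 CPM, against 5.04 to 91.3 CPM. In TMPC alone endothelial markers were wholly lower (114 to 152 CPM, against 189 to 679 CPM) and skeletal muscle markers wholly higher (21.6 to 194 CPM, against 1.81 to 3.21 CPM). The other marker lists overlapped. The part of these markers in the differences was not tested. In TMP against TM 4 of the 10 genes rose and 1 fell, against 14.3% and 13.4% of the 15277 genes tested. The test was the quasi-likelihood test of edgeR, and adjusted p-values are Benjamini-Hochberg values over all genes. In TMPC against TM the same counts were 4 and 1, against 18.0% and 17.8% of genes. Of all genes 4239 passed in TMP and 5469 in TMPC against TM, but 1550, 2132 and 1870 without TMP replicate 1, 2 or 3, and 3414 without TMPC replicate 2. The median log2 fold change of the 10 genes was 0.86 in TMP and 1.04 in TMPC tumours against TM, beside -0.07 for all genes tested in each comparison. TMP libraries lay wholly above TM libraries for 5 of the 10 genes and wholly below for 2, where 27.5% and 23.2% of all genes did. TMPC libraries lay wholly above TM libraries for 5 genes and wholly below for 1, where 26.1% and 21.6% of all genes did.

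Between TMPC and TMP tumours under the skin no difference in the 10 genes passed the edgeR test, nor did any among all genes (0 of 15277). At an unadjusted p under 0.05 edgeR had 0 of the 10 and 465 of all genes, or 3.04%, and DESeq2 called 17 genes, none of them among the 10. TMPC libraries lay wholly above TMP libraries for Ccne1 and Cdk4 and wholly below for 0 of the 10, where 7.15% and 5.67% of all genes did. The intervals differed in width, and none was narrow. For E2f1 the log2 fold change was 0.29 with a 95% interval of -0.17 to 0.76, for Cdk4 0.34 with -0.23 to 0.91, and for Cdkn2a 0.06 with -1.68 to 1.81.

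Between the 2 sites, orthotopic TMPC tumours held less mRNA of Cdk4, Cdk6, Ccne1 and E2f1 than subcutaneous TMPC tumours. In this comparison 0 of the 10 genes rose and 4 fell, against 14.0% and 13.8% of 15123 genes tested with edgeR. The median log2 fold change of the 10 genes was -1.01, beside 0.05 for all genes. Orthotopic libraries lay wholly below subcutaneous ones for 6 genes and wholly above for 1, Rb1, where 26.3% and 22.4% of all genes did. For Cdkn2a, among the 6, the nearest libraries were almost equal (227.97 and 228.6 CPM). Of the 10 marker lists, 8 were wholly higher in the orthotopic libraries than in subcutaneous TMPC. Besides gastric epithelium and liver (1.60 to 2.22 CPM in subcutaneous TMPC), these were general epithelium (4362 to 7214 CPM, against 1032 to 3409 CPM in subcutaneous TMPC), leukocytes (1255 to 2240 CPM, against 584 to 1176 CPM) and fibroblasts (6778 to 18568 CPM, against 3664 to 5491 CPM). They also included endothelium (184 to 469 CPM, against 114 to 152 CPM), smooth muscle (545 to 1372 CPM, against 174 to 436 CPM) and pancreas (17.1 to 155 CPM, against 5.44 to 12.8 CPM). Skeletal muscle was wholly lower (3.31 to 7.83 CPM, against 21.6 to 194 CPM), adipose markers overlapped, and the part of these differences in the falls was not tested. Of all genes 4204 passed. Without orthotopic replicate 2 only Cdk4 of the 10 was called and 387 genes passed, and without orthotopic replicate 1 or subcutaneous replicate 1, 2 or 3, 2 of the 10 were called (1221, 3510, 1648 and 2094 genes). Without orthotopic replicate 3, 5 of the 10 and 4789 genes were called.

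**Figure D2:**
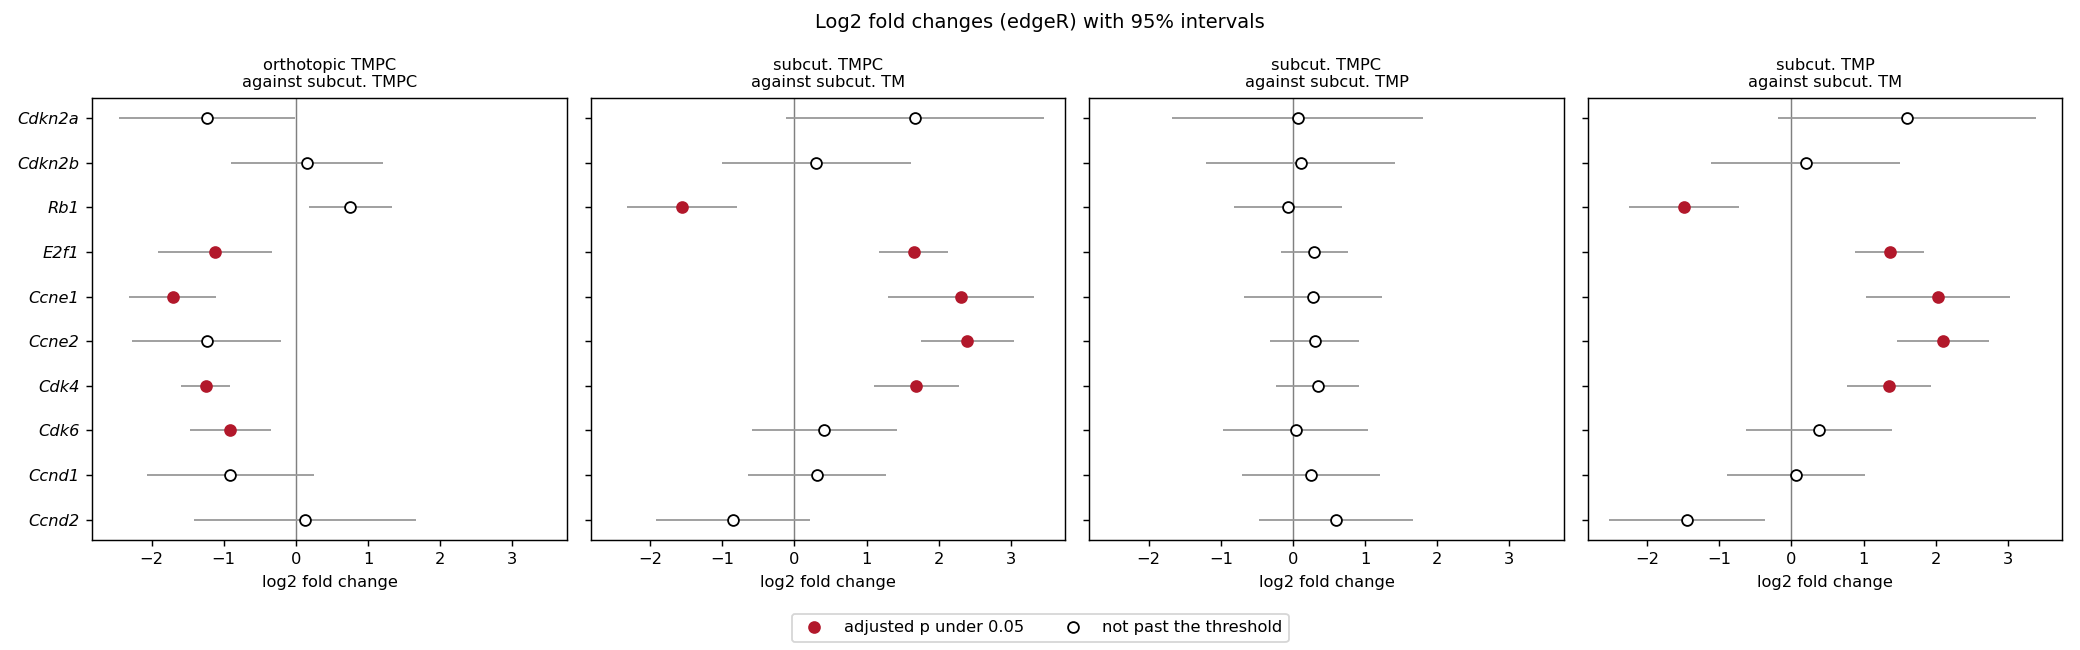
Log2 fold changes of the 10 genes in the 4 comparisons (points, edgeR) with 95% intervals (bars); filled points passed an adjusted p of 0.05. Cdk4, Ccne1, Ccne2 and E2f1 are filled to the right and Rb1 to the left in both comparisons with TM, no gene is filled for TMPC against TMP, and Cdk4, Cdk6, Ccne1 and E2f1 are filled to the left for the site.

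Cdk4, the main kinase partner of D cyclins, was the one gene of the 10 called in 3 comparisons under every alternative run. It had 247, 252 and 260.3 CPM in orthotopic TMPC, 584, 665 and 623 CPM in subcutaneous TMPC, 542, 449 and 465 CPM in TMP, and 208, 109.8 and 245 CPM in TM tumours. The 6 subcutaneous TMPC and TMP libraries were all higher than every orthotopic TMPC and TM library, and the orthotopic libraries were close to each other. Cdk4 rose 2.54-fold in TMP against TM (log2 fold change 1.35 ± 0.25 SE, adjusted p = 0.00936) and 3.22-fold in TMPC against TM (1.69 ± 0.26, adjusted p = 0.00280). In orthotopic against subcutaneous TMPC it fell by 1.25 ± 0.14 on the log2 scale (adjusted p = 0.00864). Cdk4 (mm10 chr10:127063534-127067920, + strand) shares 641 exonic bases with Tspan31 on the opposite strand, and whether counting used strand is not given in the sources used here. Tspan31 lay between 66.1 and 107 CPM in all 12 libraries and was called in no comparison.

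The promoter of Cdk4 is shown because it repeats the E-box CACGTG, a sequence that Myc and related factors bind. It holds CACGTG, searched on both strands, 4 times in the 250 bases before the start site, whereas 6.02% of 32817 mouse promoter windows of the same length hold it at least once and 0.0213%, or 7 windows, hold it 4 or more times. The sequence is RefSeq's on GRCm38.p6, chr10:127063285-127063533, + strand (249 bases, the part of the window outside annotated exons), with CACGTG in capitals; a match is a description of letters and no evidence of binding.
Cdk4 promoter: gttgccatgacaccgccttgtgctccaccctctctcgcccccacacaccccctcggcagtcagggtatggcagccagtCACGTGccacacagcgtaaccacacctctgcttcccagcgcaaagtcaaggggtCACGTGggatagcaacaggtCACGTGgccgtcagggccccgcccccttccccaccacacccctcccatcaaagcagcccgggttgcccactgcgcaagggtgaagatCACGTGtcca
The first bases of the E-boxes lie 172, 118, 98 and 11 bases before the start site. Myc itself had 70.5, 94.4 and 161 CPM in orthotopic TMPC, 874, 784 and 904 CPM in subcutaneous TMPC, 1357, 569 and 474 CPM in TMP, and 469, 78.2 and 466 CPM in TM tumours. Myc fell by 2.91 ± 0.34 on the log2 scale in orthotopic against subcutaneous TMPC (adjusted p = 0.00872), while its log2 differences of 1.24 ± 0.62 in TMP and 1.31 ± 0.63 in TMPC against TM were not called (adjusted p = 0.168 and 0.134). Of the other 5 of the 10 genes with a window, Cdk6 holds 1 CACGTG and Cdkn2a, Cdkn2b, Ccne1 and E2f1 hold none. The Cdk6 and E2f1 windows, however, lie inside the genes as annotated and hold bases of their exons. The sequence before the annotated start of Cdk6 and of E2f1 was therefore not searched. Rb1, Ccnd1, Ccnd2 and Ccne2 were not searched.

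Cdk6, the second D cyclin kinase, was scarce beside Cdk4: Cdk4 made up between 96.6% and 99.3% of their summed CPM per kb in every library. Cdk6 had 11.97, 13.9 and 10.2 CPM in orthotopic TMPC, 27.8, 20.5 and 21.9 CPM in subcutaneous TMPC, 24.6, 25.4 and 17.2 CPM in TMP, and 31.1, 8.56 and 11.4 CPM in TM tumours. Only TM replicate 1 kept the TM group from lying below the other subcutaneous groups. Cdk6 fell by 0.91 ± 0.23 on the log2 scale in orthotopic against subcutaneous TMPC (adjusted p = 0.0337), a call that was lost without any 1 of the 6 libraries (adjusted p 0.0548 to 0.101) at log2 values of -1.05 to -0.80. Against TM its differences were 0.38 ± 0.44 in TMP and 0.42 ± 0.44 in TMPC (adjusted p = 0.539 and 0.482). Without TM replicate 1 they were 1.15 and 1.21 and passed (adjusted p = 0.0335 and 0.0218).

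The E cyclins showed the largest folds of the 10 genes against TM tumours. Ccne1 had 11.3, 11.1 and 17.2 CPM in orthotopic TMPC, 50.1, 39.4 and 45.3 CPM in subcutaneous TMPC, 37.2, 36.1 and 35.9 CPM in TMP, and 4.95, 15.0 and 5.59 CPM in TM tumours. The subcutaneous TMPC and TMP libraries lay above all others, and the highest TM library was replicate 2, the one low in epithelial markers. Ccne1 rose 4.08-fold in TMP against TM (log2 2.03 ± 0.43, adjusted p = 0.0142) and 4.95-fold in TMPC against TM (2.31 ± 0.44, adjusted p = 0.00636). Without TM replicate 2 the log2 values were 2.79 ± 0.18 and 3.09 ± 0.19 (adjusted p = 0.000628 and 0.000253). In orthotopic against subcutaneous TMPC Ccne1 fell by 1.71 ± 0.25 (adjusted p = 0.0103), and by 1.60 without orthotopic replicate 2, where the call was lost (adjusted p = 0.0511).

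Ccne2, the second E cyclin, ran lower than Ccne1 but in the same order of groups. It had 3.43, 5.57 and 8.98 CPM in orthotopic TMPC, 17.9, 14.4 and 11.9 CPM in subcutaneous TMPC, 9.93, 14.3 and 11.1 CPM in TMP, and 2.87, 2.41 and 2.75 CPM in TM tumours. No TM library reached any library of another group. Ccne2 rose 4.28-fold in TMP (log2 2.10 ± 0.28, adjusted p = 0.00301) and 5.27-fold in TMPC against TM (2.40 ± 0.28, adjusted p = 0.00113), and TM replicate 2 made little difference to it (2.07 ± 0.30 and 2.38 ± 0.31 without it). Between the sites its log2 difference of -1.24 ± 0.43 was not called (adjusted p = 0.0728), although the groups did not overlap. Without orthotopic replicate 3 it was -1.68 ± 0.38 and passed (adjusted p = 0.0254). Ccne1 supplied between 69.3% and 89.1% of the summed E cyclin CPM per kb, the 89.1% being TM replicate 2. The E cyclin total was 5.22, 5.76 and 9.02 CPM per kb in orthotopic TMPC, 23.9, 18.9 and 20.4 in subcutaneous TMPC, 16.8, 17.6 and 16.6 in TMP, and 2.68, 6.32 and 2.89 CPM per kb in TM tumours. Ccne2 (chr4:11191351-11204779, + strand) shares 609 exonic bases with Ints8 on the opposite strand (27.9 to 75.4 CPM), and without strand reads in those bases cannot be told apart.

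The D cyclins did not follow this pattern, and neither was called in any comparison. Ccnd1 had 75.5, 132 and 201 CPM in orthotopic TMPC, 434, 161 and 209.6 CPM in subcutaneous TMPC, 201, 270.5 and 192 CPM in TMP, and 238, 111 and 277 CPM in TM tumours. The groups overlapped in every comparison. Its log2 difference was 0.06 ± 0.42 in TMP (95% interval -0.90 to 1.02) and 0.31 ± 0.42 in TMPC against TM (-0.65 to 1.27), and -0.91 ± 0.48 in orthotopic against subcutaneous TMPC (-2.07 to 0.25, adjusted p = 0.195). Ccnd1 (chr7:144929931-144939925, - strand) shares 1100 exonic bases with Oraov1 on the opposite strand, which had 13.02 to 27.4 CPM.

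Ccnd2 was lower in TMP than in TM tumours without passing the test. It had 331, 213 and 77.7 CPM in orthotopic TMPC, 339, 79.0 and 174 CPM in subcutaneous TMPC, 148, 126 and 108 CPM in TMP, and 463, 233 and 327 CPM in TM tumours. Every TMP library lay below every TM library, while both TMPC groups spread more than 4-fold from lowest to highest. The log2 difference of TMP against TM was -1.44 ± 0.47 (adjusted p = 0.0522), just beyond the threshold. It passed with DESeq2 (adjusted p = 0.0141), with the 6 libraries of the 2 groups alone (0.0211) and without TM replicate 2 (-1.62 ± 0.49, adjusted p = 0.0375), TMPC replicate 1 (0.0292) or TMPC replicate 2 (0.0282). Leaving out any 1 of the other 6 libraries gave adjusted p-values of 0.0771 to 0.149. TMPC against TM gave -0.85 ± 0.47 (adjusted p = 0.184), and -1.43 ± 0.42 without subcutaneous TMPC replicate 1 (adjusted p = 0.0399). Between the sites the difference was 0.12 ± 0.64, with an interval of -1.42 to 1.66.

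Counted together with Ccnd3, the D cyclins differed between libraries both in composition and in sum. Ccnd2 made up 60.9%, 38.7% and 14.1% of D cyclin CPM per kb in orthotopic TMPC, 25.1%, 17.3% and 27.0% in subcutaneous TMPC, 24.3%, 17.0% and 19.6% in TMP, and 47.1%, 39.0% and 35.2% in TM tumours. All 3 TM libraries therefore lay above all 6 subcutaneous TMP and TMPC libraries, and the orthotopic libraries spanned the whole range, with the lowest share in replicate 3. The D cyclin total was 57.8, 58.6 and 58.7 CPM per kb in orthotopic TMPC, 144, 48.6 and 68.4 in subcutaneous TMPC, 64.8, 79.2 and 58.8 in TMP, and 105, 63.6 and 98.7 CPM per kb in TM tumours. The 3 orthotopic totals were nearly equal although Ccnd1 and Ccnd2 ran in opposite directions among them, whereas in subcutaneous TMPC the totals differed widely and the Ccnd2 share ran from 17.3% to 27.0%. These shares are a description that depends on the exon lengths used, and they were not tested. Ccnd3 was called in no comparison, and its share was highest in TM replicate 2, at 23.9%, against 4.58% and 5.15% in the other TM libraries.

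**Figure D3:**
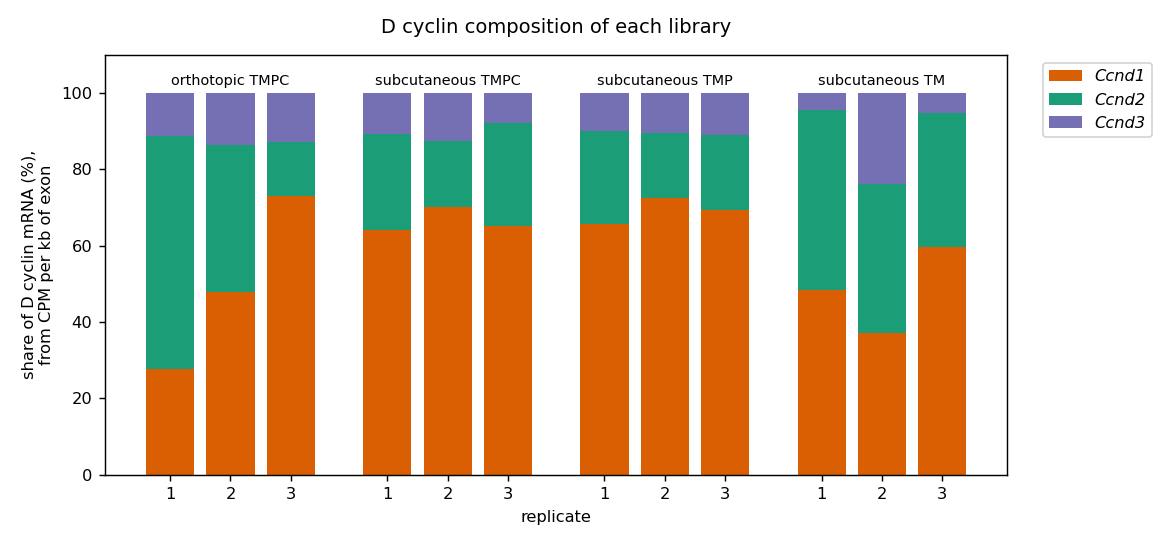
Share of Ccnd1, Ccnd2 and Ccnd3 in the summed D cyclin level (percent of CPM per kb of exon) in each of the 12 libraries; each bar is 1 library and adds to 100%. Ccnd2 takes anything from 14.1% to 60.9% in the orthotopic libraries, 17.0% to 27.0% in the subcutaneous TMPC and TMP libraries, and 35.2% to 47.1% in the TM libraries.

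Cdkn2a and Cdkn2b, the inhibitors of Cdk4 and Cdk6, lie 11.6 kb apart on chromosome 4 (Cdkn2a chr4:89274471-89294653 and Cdkn2b chr4:89306299-89311039, both - strand). Cdkn2a was detected in every library. It had 119, 228 and 77.5 CPM in orthotopic TMPC, 572, 240.1 and 229 CPM in subcutaneous TMPC, 331, 369.9 and 274 CPM in TMP, and 131, 12.1 and 177 CPM in TM tumours. TM replicate 2 had 181 reads of Cdkn2a, against 2460 and 3871 in the other TM libraries. All subcutaneous TMPC and TMP libraries lay above all 3 TM libraries and above all 3 orthotopic libraries, yet the spread within groups kept Cdkn2a from passing. Between the sites the nearest libraries were almost equal, at 228.6 CPM in subcutaneous TMPC replicate 3 and 227.97 CPM in orthotopic replicate 2. The log2 difference was 1.60 ± 0.78 in TMP against TM (adjusted p = 0.155), 1.67 ± 0.78 in TMPC against TM (adjusted p = 0.126) and -1.23 ± 0.51 in orthotopic against subcutaneous TMPC (adjusted p = 0.111). Without TM replicate 2 the first was 1.08 ± 0.40 (adjusted p = 0.0720) and the second 1.16 ± 0.40, which passed (adjusted p = 0.0495). DESeq2 called the difference between the sites (adjusted p = 0.0446).

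The mRNAs for p16Ink4a and p19Arf start from separate first exons of Cdkn2a, and the counts give 1 value for both, so the levels of the individual products were not resolved. The promoters of both starts are shown because only one of them holds an E2F consensus. That consensus was searched as TTTGGCGC, TTTCCCGC, TTTGCCGC and TTTCGCGC on both strands, and 1.86% of 32817 promoter windows of 250 bases before the start hold it. Among the 7 windows of the 6 genes with a promoter in the table, only the distal, p19Arf start of Cdkn2a holds one, TTTCCCGC, whose first base lies 99 bases before the start. Both sequences are RefSeq's on GRCm38.p6, - strand, chr4:89294654-89294869 (216 bases, the part of the window outside annotated exons) and chr4:89282193-89282442 (250 bases), with the E2F match in capitals.
Cdkn2a distal start: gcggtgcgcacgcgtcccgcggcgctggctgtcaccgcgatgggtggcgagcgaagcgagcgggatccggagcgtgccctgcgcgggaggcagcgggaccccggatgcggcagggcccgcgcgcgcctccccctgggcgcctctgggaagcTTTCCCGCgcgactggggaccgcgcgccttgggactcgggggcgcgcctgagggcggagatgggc
Cdkn2a proximal start: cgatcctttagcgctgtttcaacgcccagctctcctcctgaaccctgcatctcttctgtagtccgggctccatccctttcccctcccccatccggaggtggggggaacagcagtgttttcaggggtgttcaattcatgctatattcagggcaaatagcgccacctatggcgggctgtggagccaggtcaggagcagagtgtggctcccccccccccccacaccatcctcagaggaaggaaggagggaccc
Neither window holds CACGTG. The absence of these letters from the other windows, Ccne1 and E2f1 included, says nothing of E2F binding there. For E2f1 and Cdk6 the window lies inside the annotated gene, so the sequence before its annotated start was not searched.

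Cdkn2b, the neighbour that encodes p15Ink4b, was called in no comparison. It had 43.9, 53.5 and 18.7 CPM in orthotopic TMPC, 51.7, 23.2 and 33.5 CPM in subcutaneous TMPC, 31.2, 28.4 and 39.1 CPM in TMP, and 33.0, 6.83 and 45.8 CPM in TM tumours. The groups overlapped in all 4 comparisons, and TM replicate 2 was again the lowest library. The log2 differences were 0.20 ± 0.57 in TMP against TM, 0.30 ± 0.57 in TMPC against TM and 0.15 ± 0.44 in orthotopic against subcutaneous TMPC (adjusted p = 0.817, 0.703 and 0.813). The ratio of Cdkn2a to Cdkn2b, each in CPM per kb, was 3.23, 5.05 and 4.91 in orthotopic TMPC, 13.1, 12.3 and 8.09 in subcutaneous TMPC, 12.6, 15.4 and 8.31 in TMP, and 4.71, 2.10 and 4.596 in TM tumours. The ratio was above 8 in the 6 subcutaneous TMPC and TMP libraries and at most 5.05 in the other 6, a difference described here and not tested. Mtap, a methionine salvage enzyme whose gene lies 93.4 kb from Cdkn2a and is often deleted with it in human tumours, rose in TMP (log2 1.56 ± 0.37, adjusted p = 0.0186) and TMPC against TM (1.68 ± 0.37, adjusted p = 0.0105). It fell by 1.31 ± 0.30 in orthotopic against subcutaneous TMPC (adjusted p = 0.0248). Mtap had 66.6, 149.8 and 95.6 CPM in orthotopic TMPC, 265, 281 and 255 CPM in subcutaneous TMPC, 199, 321 and 203 CPM in TMP, and 99.3, 36.7 and 106 CPM in TM tumours.

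Rb1, the restraint on E2F, fell against TM tumours where the E cyclins rose. It had 40.8, 37.4 and 28.5 CPM in orthotopic TMPC, 16.7, 24.1 and 24.5 CPM in subcutaneous TMPC, 21.5, 20.4 and 25.8 CPM in TMP, and 45.5, 90.3 and 46.4 CPM in TM tumours. All TM libraries lay above all subcutaneous TMP and TMPC libraries, and TM replicate 2 was the highest of the 12. Rb1 fell in TMP against TM (log2 -1.49 ± 0.33, adjusted p = 0.0161) and in TMPC against TM (-1.56 ± 0.33, adjusted p = 0.00980). Without TM replicate 2 the values were -1.02 ± 0.22 and -1.08 ± 0.22 (adjusted p = 0.0115 and 0.00645). The call in TMP was lost without TMP replicate 1 or 2 (log2 -1.39 and -1.36, adjusted p = 0.0601 and 0.0541). Between the sites Rb1 differed by 0.75 ± 0.24, orthotopic above subcutaneous, and was not called (adjusted p = 0.0570), whereas DESeq2 called it (adjusted p = 0.0179).

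Rb1 (chr14:73183673-73325822, - strand) spans Lpar6, a receptor gene on the opposite strand in one of its introns, with which it shares 408 annotated exonic bases, and it shares 488 with Rcbtb2. Without strand, reads in those bases cannot be told apart. Lpar6 had 31.9, 28.1 and 33.3 CPM in orthotopic TMPC, 15.6, 17.3 and 26.6 CPM in subcutaneous TMPC, 21.9, 16.8 and 22.6 CPM in TMP, and 68.8, 57.5 and 78.4 CPM in TM tumours. It fell in TMP (log2 -1.77 ± 0.24, adjusted p = 0.00330) and TMPC against TM (-1.84 ± 0.24, adjusted p = 0.00176). Itm2b, which lies 36.4 kb from Rb1 and shares no bases with it, had 572 to 721 CPM in orthotopic TMPC, 232 to 284 CPM in subcutaneous TMPC, 255 to 299.9 CPM in TMP and 959 to 1407 CPM in TM tumours. Itm2b fell by 2.08 ± 0.21 in TMP and 2.22 ± 0.21 in TMPC against TM, and rose by 1.33 ± 0.16 in orthotopic against subcutaneous TMPC (adjusted p = 0.00142, 0.000646 and 0.00872). Rcbtb2 was called in no comparison. Of the 13 tested genes that adjoin or overlap the 10, 1 rose and 2 fell in TMP and 2 rose and 3 fell in TMPC against TM, and 2 rose and 2 fell between the sites, beside 14.3% and 13.4%, 18.0% and 17.8%, and 14.0% and 13.8% of all genes in these comparisons. In TMPC against TM the 5 calls were 3 without TM replicate 3 or any 1 TMPC library. Between the sites the 4 calls were 1 without orthotopic replicate 1 or subcutaneous replicate 2, and 2 without orthotopic replicate 2 or 3. Fam133b, next to Cdk6, was one of those that fell, by 0.54 ± 0.14 (adjusted p = 0.0367).

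**Figure D4:**
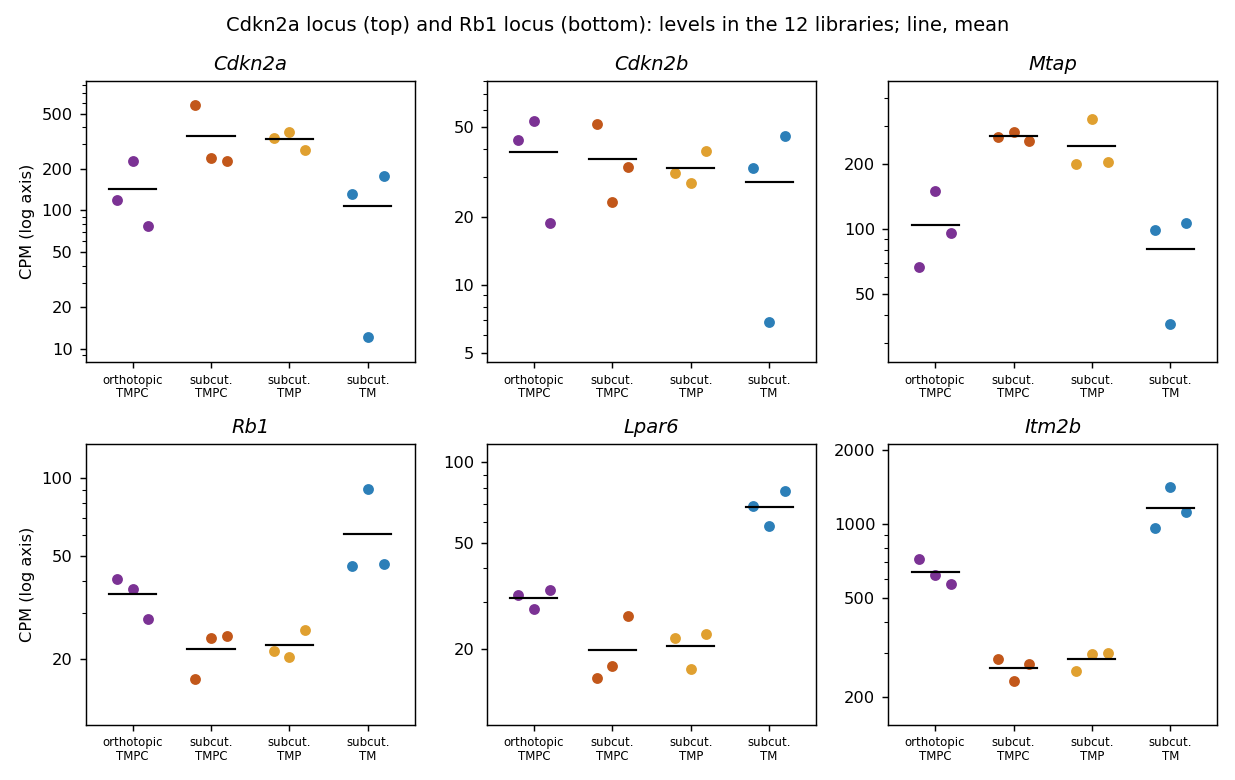
Levels in CPM (log axes) of Cdkn2a and Cdkn2b with their neighbour Mtap (top), and of Rb1 with Lpar6, which overlaps it, and the nearby Itm2b (bottom), in the 12 libraries; points are libraries and lines group means. Mtap is higher in subcutaneous TMPC and TMP tumours than in the other groups whereas the means of Cdkn2b lie between 28.5 and 38.7 CPM, and Rb1, Lpar6 and Itm2b are all highest in TM tumours.

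E2f1, the activator released from Rb1, rose against TM tumours as the E cyclins did. It had 13.3, 17.4 and 27.4 CPM in orthotopic TMPC, 56.2, 35.3 and 40.6 CPM in subcutaneous TMPC, 37.9, 36.8 and 31.1 CPM in TMP, and 15.0, 11.8 and 13.4 CPM in TM tumours. The TM libraries were close to each other, and all 6 subcutaneous TMPC and TMP libraries were above every other library. E2f1 rose 2.57-fold in TMP against TM (log2 1.36 ± 0.21, adjusted p = 0.00460) and 3.15-fold in TMPC against TM (1.65 ± 0.21, adjusted p = 0.00145), with 1.32 and 1.63 when TM replicate 2 was left out. In orthotopic against subcutaneous TMPC it fell by 1.12 ± 0.33 (adjusted p = 0.0480). That call held without orthotopic replicate 3 (-1.49 ± 0.28, adjusted p = 0.0161), the library apart in liver and other markers and with the highest orthotopic E2f1. The call was lost without any 1 of the other 5 libraries (log2 -1.32 to -0.90, adjusted p 0.0715 to 0.136).

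The other genes of the pathway were taken from lists fixed by name with earlier results known. The counts below are to be read beside the shares of all genes tested. In TMP against TM 14.3% of all genes rose and 13.4% fell, in TMPC against TM 18.0% and 17.8%, and between the sites 14.0% and 13.8%. Among 17 genes listed under pocket proteins, E2F and DREAM, 9 rose and 2 fell in TMP against TM. In TMPC against TM 9 rose and 1 fell, and 9 fell between the sites. Mybl2 rose by 2.65 ± 0.26 in TMP and 2.79 ± 0.26 in TMPC against TM on the log2 scale (adjusted p = 0.00142 and 0.000646). Lin9, a subunit of the DREAM core, rose by 1.70 ± 0.16 in both (adjusted p = 0.00133 and 0.000635). E2f7, a repressor among the E2F factors, rose by 2.20 ± 0.26 in TMPC against TM (adjusted p = 0.00113). Tfdp1, the dimer partner of E2F, rose by 1.27 ± 0.19 in TMP against TM and fell by 0.95 ± 0.18 in orthotopic against subcutaneous TMPC (adjusted p = 0.00409 and 0.0160). E2f3 and Rbbp4, a histone-binding DREAM subunit, fell by 1.60 ± 0.29 and 0.94 ± 0.13 between the sites (adjusted p = 0.0148 and 0.0101). Between the sites the count of calls on this list was 9 with all libraries, 2 without orthotopic replicate 1, 0 without orthotopic replicate 2, and 5 without subcutaneous replicate 2 or 3. The pocket proteins closest to Rb1 differed from each other. Rbl2 (p130), the form of resting cells, had 30.5 to 41.9 CPM in the 9 TMPC and TMP libraries, against 70.6, 80.4 and 56.1 CPM in TM tumours. It fell by 1.14 ± 0.20 in TMP and 1.00 ± 0.20 in TMPC against TM (adjusted p = 0.00727 and 0.00756), and its difference between the sites was 0.05 ± 0.19 (adjusted p = 0.870). Rbl1 (p107) was called only between the sites, where it fell by 0.59 ± 0.15 (adjusted p = 0.0328), and its 0.01 ± 0.31 in TMP and 0.32 ± 0.31 in TMPC against TM were not called.

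Genes that E2F activates for DNA synthesis were higher in TMP and TMPC than in TM tumours and lower in orthotopic than in subcutaneous TMPC, nearly throughout. Of 32 such genes 31 rose in TMP (median log2 fold change 1.32) and 32 in TMPC against TM (median 1.72), and 29 fell in orthotopic against subcutaneous TMPC (median -1.35), beside medians of all genes of -0.07, -0.07 and 0.05. Mcm2, a subunit of the replicative helicase, rose by 1.71 ± 0.16 and 2.22 ± 0.16 in TMP and TMPC against TM (adjusted p = 0.00140 and 0.000537). Dnmt1, which copies DNA methylation at the fork, rose by 1.51 ± 0.14 and 1.85 ± 0.14 (adjusted p = 0.00135 and 0.000537). Orc1, of the origin recognition complex, rose by 1.95 ± 0.22 in TMP against TM (adjusted p = 0.00195). Mcm6 fell by 1.27 ± 0.16 and Rpa2, which coats single-stranded DNA, by 1.70 ± 0.23 between the sites (adjusted p = 0.00911 and 0.00920). Slbp, the histone mRNA binding protein, was the gene not called in TMP against TM (0.28 ± 0.22, adjusted p = 0.358), and Tk1, Slbp and Orc1 were those not called between the sites (adjusted p = 0.0542, 0.0731 and 0.0768). All 16 genes of G2 and mitosis rose in TMP (median 2.06) and TMPC against TM (median 2.47), and all 16 fell between the sites (median -1.55). Bub1b, a spindle checkpoint kinase, rose by 2.36 ± 0.21 and 2.70 ± 0.21 in TMP and TMPC against TM, Top2a, a topoisomerase of mitotic chromosomes, by 2.02 ± 0.17 and 2.49 ± 0.17, and Birc5 (survivin) by 1.83 ± 0.17 and 2.18 ± 0.17 (adjusted p 0.00128 to 0.00133 in TMP, 0.000537 in TMPC). Cdc20, which activates the anaphase-promoting complex, fell by 1.58 ± 0.15, Kif11, a spindle motor, by 1.97 ± 0.19 and Cenpa, the centromere histone, by 1.67 ± 0.18 between the sites (adjusted p = 0.00738, 0.00755 and 0.00780). Leaving out TM replicate 2 kept the counts against TM at 31 and 32 for the synthesis genes and 16 for the mitotic genes. Over all single libraries left out, TMP against TM had 24 to 31 synthesis genes and 15 to 16 mitotic genes called. TMPC against TM had 31 to 32 and 16. Leaving out orthotopic replicate 2 left 4 of 32 and 4 of 16 called between the sites, whereas without orthotopic replicate 3 there were 31 and 16. In TMPC against TMP none of these genes was called. At an unadjusted p under 0.05 edgeR had 14 of the 32 synthesis genes and 2 of the 16 mitotic genes, beside 3.04% of all genes. TMPC libraries lay wholly above TMP libraries for 22 and 9 of them and wholly below for 0, where 7.15% and 5.67% of all genes did.

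**Figure D5:**
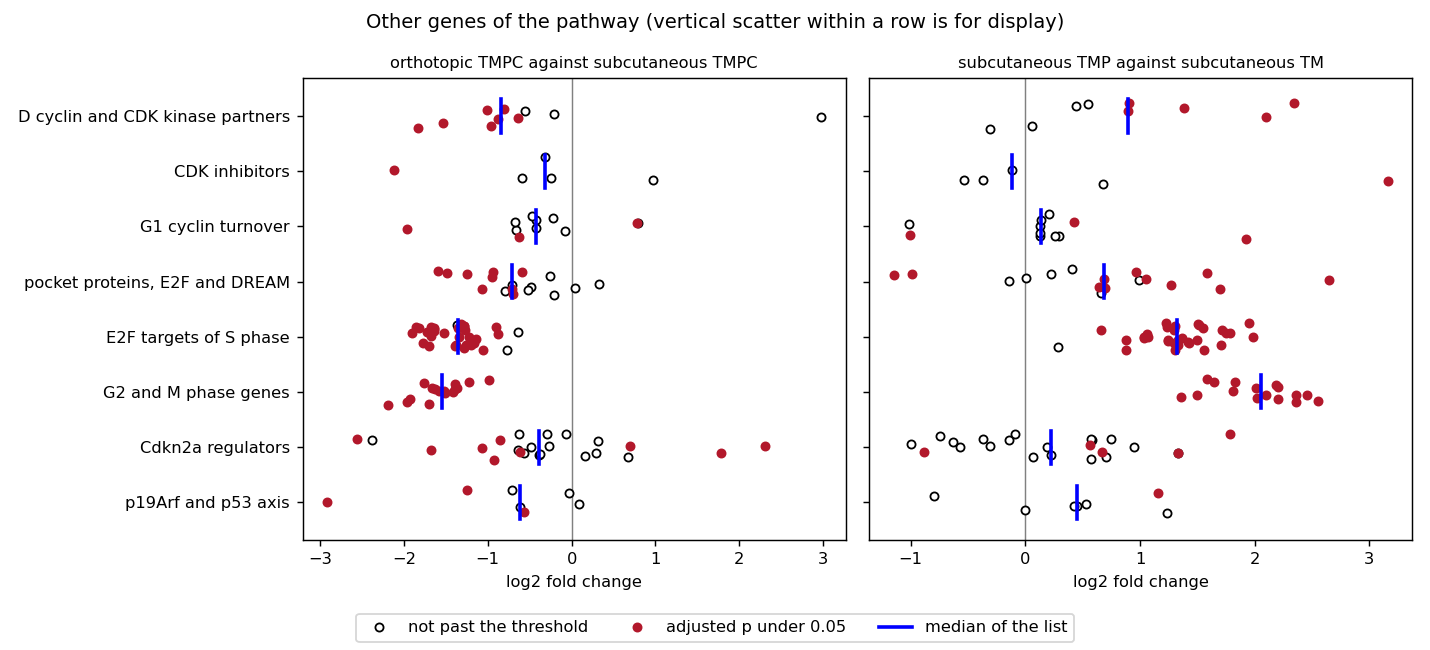
Log2 fold changes of the other pathway genes by list, for orthotopic against subcutaneous TMPC (left) and subcutaneous TMP against TM (right); each point is a gene, filled where its adjusted p was under 0.05, and the bar is the list's median. The S phase and G2 and M phase lists lie left of 0 with medians of -1.35 and -1.55 on the left, and right of 0 with medians of 1.32 and 2.06 on the right, while the inhibitors and turnover genes straddle 0.

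Among the partners of cyclins, 5 of 9 tested genes rose in TMP and 6 of 9 in TMPC against TM, and 7 of 10 fell between the sites. Cdk2, the kinase of E cyclins, had 40.4, 39.8 and 39.9 CPM in orthotopic TMPC, 77.8, 77.8 and 62.2 CPM in subcutaneous TMPC, 64.3, 66.1 and 52.7 CPM in TMP, and 29.8, 35.0 and 30.6 CPM in TM tumours. Its log2 fold change was 0.90 ± 0.17 in TMP and 1.12 ± 0.18 in TMPC against TM and -0.80 ± 0.15 between the sites (adjusted p = 0.0103, 0.00305 and 0.0148). Cks1b, a small subunit of CDK complexes, rose by 2.35 ± 0.20 and 2.54 ± 0.20 against TM and fell by 1.83 ± 0.25 between the sites (adjusted p = 0.00128, 0.000540 and 0.00974). Cdc37, the chaperone of Cdk4, rose by 0.91 ± 0.14 and 1.01 ± 0.14 against TM (adjusted p = 0.00477 and 0.00205). Ccna2, cyclin A of S phase, rose by 2.10 ± 0.18 and 2.40 ± 0.18 against TM and fell by 1.53 ± 0.26 between the sites (adjusted p = 0.00128, 0.000537 and 0.0134). Without orthotopic replicate 2 none of the 10 partners was called between the sites, 3 were without orthotopic replicate 1 or subcutaneous replicate 2, and 4 without subcutaneous replicate 3. Of 11 genes listed for the turnover of G1 cyclins or inhibitors, 2 rose and 1 fell in both comparisons with TM, and 1 rose and 2 fell between the sites. These counts lie near the shares of all genes, which were 14.3% and 13.4% in TMP, 18.0% and 17.8% in TMPC, and 14.0% and 13.8% between the sites. Skp2, which targets p27 for degradation, rose by 1.92 ± 0.27 and 2.42 ± 0.28 against TM and fell by 1.96 ± 0.32 between the sites (adjusted p = 0.00361, 0.00103 and 0.0118). Fbxo4, described as a cyclin D1 ligase adaptor, went the other way, with -1.01 ± 0.27, -0.999 ± 0.267 and 0.78 ± 0.21 (adjusted p = 0.0275, 0.0219 and 0.0380). Cul1, the scaffold of these ligases, rose by 0.42 ± 0.12 and 0.66 ± 0.12 and fell by 0.62 ± 0.13 between the sites (adjusted p = 0.0330, 0.00525 and 0.0195). The count of calls in TMP against TM was 3, but 1 without any 1 TMP library, and between the sites it was 3, but 0 to 2 without any 1 library.

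Of the 5 other CDK inhibitors only Cdkn1c was called. Cdkn1c (p57Kip2) had 5.87, 13.7 and 11.9 CPM in orthotopic TMPC, 62.4, 51.9 and 28.5 CPM in subcutaneous TMPC, 88.5, 57.5 and 64.3 CPM in TMP, and 9.10, 4.68 and 9.25 CPM in TM tumours. As with Cdk4 and the E cyclins, the 6 subcutaneous TMPC and TMP libraries lay above all the others. Cdkn1c rose by 3.16 ± 0.37 in TMP and 2.58 ± 0.37 in TMPC against TM on the log2 scale and fell by 2.12 ± 0.43 between the sites (adjusted p = 0.00221, 0.00218 and 0.0185). The call between the sites was lost without orthotopic replicate 1 or 2 or subcutaneous replicate 2. Cdkn1a (p21), a p53 target, was not called, with 0.68 ± 0.57 in TMP and 0.45 ± 0.57 in TMPC against TM and 0.97 ± 0.41 between the sites (adjusted p = 0.394, 0.559 and 0.119). Cdkn1b (p27), the target of Skp2, gave -0.12 ± 0.20, -0.11 ± 0.20 and -0.32 ± 0.16, and Cdkn2c and Cdkn2d, which block Cdk4 and Cdk6, were called nowhere.

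On the p19Arf and p53 side 1 of 7 genes rose in TMP against TM, which is the share of all genes that rose there (14.3%). In TMPC against TM 3 rose and 1 fell, beside 18.0% and 17.8% of all genes. Between the sites 3 fell, beside 13.8% of all genes. Npm1, a nucleolar protein that binds p19Arf, rose by 1.16 ± 0.29 and 1.32 ± 0.29 and fell by 1.24 ± 0.22 between the sites (adjusted p = 0.0229, 0.0109 and 0.0146). Trp53 rose by 0.73 ± 0.24 in TMPC against TM (adjusted p = 0.0438), and its 0.53 ± 0.24 in TMP and -0.71 ± 0.23 between the sites were not called (adjusted p = 0.124 and 0.0581). Mdm2, the ligase that p19Arf blocks, lay at 0.00 ± 0.26 in TMP, 0.09 ± 0.26 in TMPC against TM and 0.09 ± 0.17 between the sites. Mdm4 fell by 0.81 ± 0.27 in TMPC against TM (adjusted p = 0.0496) and Huwe1, a ligase that p19Arf inhibits, rose by 0.57 ± 0.18 (adjusted p = 0.0405), whereas Usp7, which deubiquitinates p53, was not called. These counts moved with single libraries. In TMP against TM, 3 were called without TM replicate 2, 2 without TM replicate 1 or 3 or TMPC replicate 1, and 0 without any 1 TMP library. In TMPC against TM there were 5 without TM replicate 2, and 1 or 2 without TM replicate 1 or 3, TMP replicate 3 or TMPC replicate 2 or 3. Between the sites 1 was called without orthotopic replicate 1 or 2, 2 without orthotopic replicate 3 or subcutaneous replicate 2 or 3, and 4 without subcutaneous replicate 1.

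Of 23 genes known to regulate Cdkn2a transcription, 4 rose and 1 fell in TMP against TM, beside 14.3% and 13.4% of all genes. In TMPC against TM 8 rose and 2 fell, beside 18.0% and 17.8%. Between the sites 3 rose and 6 fell, beside 14.0% and 13.8%. Ezh2, the methyltransferase of Polycomb complex 2 that represses Cdkn2a and an E2F target, rose by 1.33 ± 0.16 and 1.81 ± 0.16 against TM and fell by 1.68 ± 0.18 between the sites (adjusted p = 0.00235, 0.000609 and 0.00756). Its partner Suz12 moved likewise, with 0.67 ± 0.16, 0.87 ± 0.16 and -0.93 ± 0.16 (adjusted p = 0.0189, 0.00526 and 0.0140). Ezh1, the paralogue of resting cells, fell by 0.88 ± 0.15 and 1.07 ± 0.15 against TM (adjusted p = 0.00594 and 0.00192). Id1, which represses p16Ink4a, had 107, 125 and 74.2 CPM in orthotopic TMPC, against 33.1, 18.99 and 12.02 CPM in subcutaneous TMPC. It rose by 2.31 ± 0.39 between the sites (adjusted p = 0.0133). The count of calls in TMP against TM was 5, but 2 or 3 without TM replicate 3 or TMP replicate 1 or 3, and 9 without TM replicate 2. In TMPC against TM it was 10, but 5 without TMPC replicate 2. Between the sites it was 9, but 2 without orthotopic replicate 1, 1 without orthotopic replicate 2 and 3 without subcutaneous replicate 2. Ezh2 also stands among the synthesis genes above.

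The genes whose log2 CPM over the 12 libraries was most like that of each gene, among 12028 genes with a mean of at least 5 CPM, are given as a description without a test, since the points share groups and libraries. For Cdk4 they were Kif18a, Psrc1 and Hirip3 (Pearson r = 0.994, 0.992 and 0.991), for E2f1 Bzw1, Alkbh2 and Uhrf1 (0.992, 0.988 and 0.984), and for Ccne2 Bzw1, Ccnf and Bub1 (0.985, 0.985 and 0.980). For Ccne1 they were Nmral1, Homer1 and Psmd11 (0.976, 0.975 and 0.975), for Rb1 Wars, Tcf7l2 and Flii (0.975, 0.973 and 0.972), and for Cdkn2a Tfdp2, Nudt11 and Ogdhl (0.968, 0.963 and 0.960). For Cdk6 they were Zfp12, Tet3 and Tcf20 (0.951, 0.942 and 0.922) and for Cdkn2b Cfap20, Ccdc112 and Efnb1 (0.941, 0.929 and 0.927). For Ccnd1 they were Metap1d, Cyp20a1 and Socs5 (0.932, 0.894 and 0.890) and for Ccnd2 Papln, Asb1 and Dirc2 (0.898, 0.897 and 0.881). Bzw1 was thus the nearest gene of both E2f1 and Ccne2, and the D cyclins had the least close ones of the 10.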

How the data were processed

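Bulk polyA RNA was read as 150 bp pairs in 12 libraries, whose groups and replicate numbers come from the sample titles; 2 single-cell samples were not analysed here. The submitters' processing notes name STAR 2.6.0, DESeq2 and the build mm10. Which counter, annotation and strand setting were used, the sources used here do not say. The authors deposited whole-number counts per gene in 2 tables, with, per the file headers, normalized counts, a signal that is the count divided by a size factor per library, which was used only as a check.

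The symbols of the subcutaneous table stand out of step with its counts from entry 12291 of 24421 on, so symbols were taken by position from the other table. Counts then equalled signal times size factor within 0.01 reads in 24419 of 24419 entries (14200 as deposited). Of the 10 genes only Rb1 is affected. No column of per-sample values was left unmapped.

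The tests were edgeR's (version 4.0.16, R 4.3.3; glmQLFit and glmQLFTest after TMM and filterByExpr), with Benjamini-Hochberg adjustment over all genes tested and a threshold of 0.05. The 9 subcutaneous libraries formed 1 fit and the 6 TMPC libraries another. Standard errors are the log2 fold change divided by the square root of F, and intervals use edgeR's degrees of freedom. With 3 libraries on each side an exact two-sided p is at least 0.1, so no such test was used. The steps were tested on simulated data, which lacked the uneven cell mixtures of these libraries. Alternatives were DESeq2 1.42.0, other size factors and filters, other sets of fitted libraries, a replicate block and leaving out each library. Exon lengths and positions are from GENCODE M21 on mm10, and promoters from RefSeq for 6 of the 10 genes. The 10 genes, the lists, tests and alternatives were chosen with earlier results of these data known. Named are the 10 genes, per list and comparison up to 3 called genes with the smallest adjusted p and a mean of at least 5 CPM, all CDK inhibitors and p53 axis genes, Rbl1, Rbl2, Ccnd3, Cdk2, Mtap, and per gene the 3 of nearest pattern. Slbp and the genes that overlap or adjoin the 10 were named in addition. No library duplicated another of its group: chi-square per degree of freedom between replicates was 28.4 to 429. Libraries of different groups were not compared in this way. Floors cover counting error only.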

Additional observations from a re-analysis of the deposited data

How the results depend on the processing

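Of 170 recomputed values of the 10 genes in each comparison under the skin, 157 (TMP against TM), 160 (TMPC against TMP) and 164 (TMPC against TM) kept direction and side of the threshold, and 103 of 130 between the sites; the causes of the changes were not tested. TMPC against TMP had 17 called genes with DESeq2, against 0 with edgeR. Between the sites DESeq2 called 6372 genes and 7 of the 10, where its median over all genes lay 0.10 above edgeR's. With only the 2 groups fitted, TMPC against TM had 3536 calls.

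Correlations of same-numbered deviations were 0.08 to 0.27 for TMP and TM, and -0.22 to 0.20 for TMPC and TMP. They were -0.13 to 0.26 for TMPC and TM, and -0.07 to 0.07 between the sites. With 3 libraries a group these values cannot decide whether the replicate numbers pair the samples. With a replicate block Cdkn2a in TMPC against TMP was -0.12, and the sites had 1777 called genes and 2 of the 10.

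Leaving out 1 library gave 1550 (without TMP replicate 1) to 4885 called genes in TMP against TM, 3414 (without TMPC replicate 2) to 6390 in TMPC against TM, and 387 (without orthotopic replicate 2) to 4789 between the sites, and 4 to 6, 5 to 6 and 1 to 5 of the 10 genes. Without 1 library TMP against TM turned direction for Cdkn2b (-0.25 to 0.71) and Ccnd1 (-0.21 to 0.31), and TMPC against TM for Cdkn2b (-0.13 to 0.82) and Ccnd1 (-0.18 to 0.62). TMPC against TMP did so for Cdkn2a (-0.47 to 0.30), Cdkn2b (-0.22 to 0.37), Rb1 (-0.15 to 0.10), Ccnd1 (-0.26 to 0.54), Ccnd2 (-0.015 to 1.004) and Cdk6 (-0.11 to 0.16), and the sites for Cdkn2b (-0.16 to 0.47) and Ccnd2 (-0.36 to 0.73). None of these was called. Of 576 recomputed counts of the pathway lists, 71 moved by over 1.5 times. At 3 libraries a group, differences such as those of Cdkn2a under the skin, with intervals over 3 log2 units wide, could not be resolved. Between the sites the Cdkn2a interval was narrower, at -2.45 to -0.01.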
